A study of Homo sapiens with 12 samples.

Results

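The response examined here is that of OVCAR-3 cells to interferon alpha (IFNa) when fusicoccin A (FC-A) was also part of the treatment. It was measured as the Combination group (FC-A plus IFNa) against the FC-A group, with 3 libraries in each, so 6 of the 12 libraries of the study enter the comparison itself. OVCAR-3 is an established human ovarian adenocarcinoma line, and all cells were wild type and were collected 6 h after treatment. The other 6 libraries are 3 from cells given the vehicle DMSO and 3 from cells given IFNa without FC-A. FC-A is a fungal diterpene glycoside that holds 14-3-3 adapter proteins on their phosphorylated partners. The sources used here do not give the doses, the subtype of IFNa or the order in which the agents were added. A gene was tested when its values averaged 10 normalized reads or more across all 12 libraries, which kept 15990 of 28035 listed genes and left out 12045.

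IFNa binds the receptor chains IFNAR1 and IFNAR2, which carry the kinases TYK2 and JAK1. These phosphorylate STAT proteins, among them STAT2, which join IRF9 and enter the nucleus as the complex ISGF3. ISGF3 binds the interferon-stimulated response element (ISRE) in the promoters of antiviral genes, whereas other STAT dimers bind the gamma-activated site (GAS). In epithelial and tumour cells the induced proteins block viral replication, load MHC class I with peptides, attract lymphocytes and, in some cells, lower the threshold for death.

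Adding IFNa to FC-A changed 7818 of the 15990 genes (48.9% of those tested, limma adjusted p under 0.05). In the Combination 4255 genes were higher (26.6%) and 3563 were lower (22.3%). Most changes were small, and the large ones went upward. At least 2-fold higher were 1027 genes (6.42%), and at least 2-fold lower were 546 (3.41%), 1573 in all (9.84%). A change of 16-fold or more was reached by 110 genes, all of them higher, of which 40 rose 64-fold or more. No gene fell 16-fold, and 37 fell 4- to 16-fold. All 3 Combination libraries lay above all 3 FC-A libraries for 4548 genes (28.4%) and below them for 4066 (25.4%). The median standard error (SE) of a log2 fold change was 0.0924. Fold changes are on the scale of log2(normalized reads + 1), which understates the change of genes with few reads. The share of higher genes among those called was 54.4% here and 36.5% with quantile normalization, which moved the median over all tested genes from -0.01 to -0.107 on the log2 scale, so small decreases and increases depend on the scaling. In bulk RNA a change in the share of responding cells and a change in RNA per cell cannot be told apart.

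The 1027 genes that rose at least 2-fold held 2.73% ± 0.0355 of all reads assigned to genes in the FC-A libraries and 11.5% ± 0.325 in the Combination (mean ± SD, n = 3 libraries each). The 110 genes of the largest increases went from 0.0937% ± 0.00482 to 4.18% ± 0.163 of the reads. The 546 genes that fell at least 2-fold went from 0.486% ± 0.0318 to 0.176% ± 0.00392. These shares describe genes chosen by the same contrast and carry no test.

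Reads assigned to genes ranged from 31.2 to 36.7 M in the 6 libraries compared. The first principal component of all 12 libraries held 77.7% of the variance and separated those with IFNa from those without it. The next held 6.51%, and along it replicate 3 lay lowest in each group, with the FC-A libraries at 13.4, -3.65 and -23.4 and the Combination libraries at -2.36, -4.47 and -24.7. Without replicate 3 of every group, 7709 genes were called. The sources do not state that replicates were separate cultures, so the p-values stand only for the spread seen among these libraries, and that spread may be technical. Summed over 10 epithelial and ovarian markers, the level was 332657 to 420400.4 normalized reads in the FC-A libraries and 387461 to 441775 in the Combination. Leukocyte markers summed to 255 to 301 and 234 to 315, with PTPRC, the pan-leukocyte marker, at a mean of 10.2 and 7.58. Fibroblast markers summed to 1028 to 1106 and 1589 to 2199, of which COL1A1 made up most, and DCN was at 0 in all 6 libraries. Endothelial markers summed to 257 to 347 and 186 to 238. The part of such cells in the results was not tested.

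Promoter sequence was set beside the response, since the ISRE is the element through which ISGF3 acts. The 8 stretches below lie upstream of the RefSeq start sites of strongly induced genes, on the strand of the gene, from the RefSeq promoter windows of build GRCh38.p14. Capitals mark matches to the ISRE core, which is TTTC, any 2 bases and TTTC again, or to its reverse complement.
IFIT1, chr10:89392492-89392544, plus strand: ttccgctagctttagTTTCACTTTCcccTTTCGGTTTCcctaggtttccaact
IFIT3, chr10:89327826-89327899, plus strand: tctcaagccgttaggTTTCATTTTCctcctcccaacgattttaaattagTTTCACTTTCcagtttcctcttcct
MX1, chr21:41431839-41431878, plus strand: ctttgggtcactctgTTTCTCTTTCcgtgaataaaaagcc
RSAD2, chr2:6877617-6877656, plus strand: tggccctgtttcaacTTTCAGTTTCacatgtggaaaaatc
HERC5, chr4:88456979-88457069, plus strand: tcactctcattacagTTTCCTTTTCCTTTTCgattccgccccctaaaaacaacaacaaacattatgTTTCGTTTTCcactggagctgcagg
ISG15, chr1:1013369-1013414, plus strand: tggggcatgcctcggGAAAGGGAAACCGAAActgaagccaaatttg
TAP1, chr6:32853808-32853853, minus strand: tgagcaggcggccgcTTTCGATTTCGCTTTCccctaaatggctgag
CXCL10, chr4:76023694-76023733, minus strand: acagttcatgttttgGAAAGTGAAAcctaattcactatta

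The ISRE core became more frequent with the size of the increase. Windows of 300 bases (250 before and 50 after a start site) were found for 11597 of the tested genes, and a gene counted when any of its windows matched on either strand. Among genes 16-fold or more higher, 39 of 68 with a window held the core (57.4%). The share was 22.2% (40 of 180) for 4- to 16-fold, 9.6% (41 of 427) for 2- to 4-fold and 6.43% (36 of 560) for 1.5- to 2-fold increases. It was 2.67% (152 of 5683) among genes not called and 2.96% (10 of 338) among those at least 2-fold lower, against 3.9% (452 of 11597) of all tested genes and 4.38% (1195 of 27305) of all genes in the promoter table. The GAS core TTCNNNGAA, which reads the same on both strands, was held by 20.6% (14 of 68) of the 16-fold class, 15% (27 of 180) of the 4- to 16-fold class and 8.31% of all tested genes. In 5 of the 68 genes of the top class an ISRE match overlapped a GAS match. These are matches of letters in a fixed window and show no binding.

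**Figure D1:**
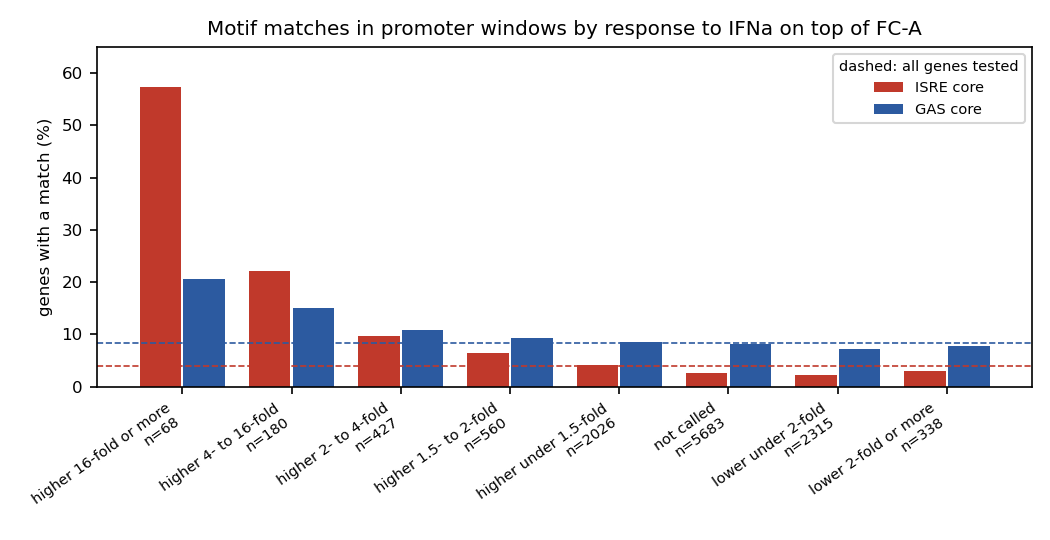
Share of genes (y axis, percent) whose promoter window holds the ISRE core (red) or the GAS core (blue), by class of response in the Combination against FC-A (x axis, with the number of genes that have a window). The red bars fall from 57.4% in the class of 16-fold or more to 2.67% among genes not called, the blue bars from 20.6% to 8.09%, and dashed lines mark the share over all tested genes.

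Transcripts of the factors that the receptor activates rose several-fold, while those of the receptor chains changed by less than 1.5-fold or did not pass. STAT2 stood at 2053, 2453 and 2928 normalized reads in the FC-A libraries and at 16842, 17464 and 18652 in the Combination. The groups were far apart, and the rise was 7.19-fold (log2 fold change 2.85, SE 0.10, limma adjusted p = 1.78e-11). IRF9, the DNA-binding part of ISGF3, had few reads, at 33.9, 38.6 and 33.1 with FC-A against 226, 240.4 and 219 in the Combination (6.35-fold, adjusted p = 3.94e-08). JAK1 rose 1.71-fold and IFNAR2 1.38-fold (adjusted p = 1.19e-08 and 4.68e-05). IFNAR1 had overlapping groups, 2609.7, 2356 and 2629 against 2624, 2662 and 2835 (log2 fold change 0.10, SE 0.06, adjusted p = 0.165), and so did TYK2 (-0.01, SE 0.06, adjusted p = 0.906). Of the 7 receptor and signalling genes 5 rose, 0 fell and 2 did not pass (median log2 fold change 0.78, against -0.01 over all genes tested). With quantile normalization TYK2 was called lower.

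Genes listed as feedback inhibitors of the pathway were divided between strong responders and genes near their starting level. USP18, a protease that removes ISG15 and blocks the receptor, went from 451, 493 and 434 to 13889, 13485 and 11844 normalized reads, a 28.4-fold rise (log2 fold change 4.83, SE 0.08, adjusted p = 1.49e-15). SOCS1, an inhibitor of the JAK kinases, went from 58.8, 67.6 and 71.7 to 800.0, 722 and 636 (10.7-fold, adjusted p = 7.63e-11). Neither gene's groups overlapped. NMI, which binds STAT proteins and is counted in the list without being an established inhibitor, rose 5.94-fold. SOCS2 rose 2.53-fold. PIAS3, the phosphatases PTPN6 and PTPN11 and the STAT5 target CISH did not pass. In all, 8 of the 12 genes rose and 0 fell (median 0.24), and 5 rose and 2 fell (PIAS3 and PTPN11) with quantile normalization. Without FC-A replicate 1 PTPN11 was called higher.

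**Figure D2:**
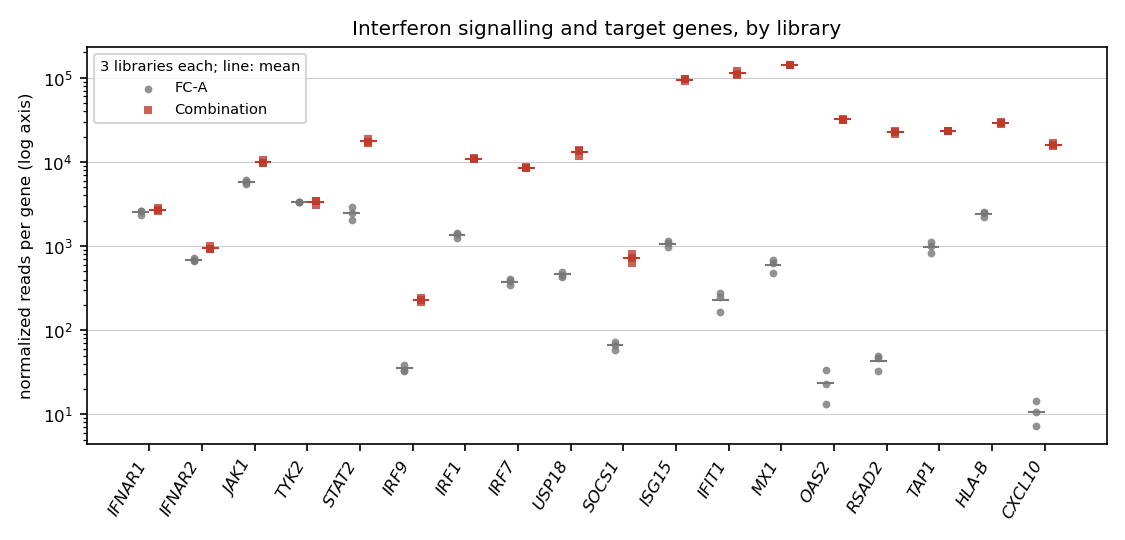
Normalized reads per gene on a log axis for each of the 3 FC-A libraries (grey) and 3 Combination libraries (red), with a line at each mean, for interferon signalling genes and their targets. IFNAR1 and TYK2 overlap between the groups, whereas STAT2 has a mean of 2478 with FC-A and 17653 in the Combination, and OAS2 and CXCL10 move from means of 23.5 and 10.7 to 32068 and 16021.

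All 7 tested interferon regulatory factors rose (median 0.63). IRF7, the factor that drives later interferon production, went from 349, 406 and 379.8 to 8800.1, 8423 and 8486 normalized reads (22.6-fold). IRF1, a factor induced by interferons, rose 8.07-fold, from 1429, 1396 and 1234 to 10800.1, 11124 and 10784. IRF2 rose 2.61-fold, and IRF3, IRF5 and IRF8 rose 1.54-, 1.53- and 1.52-fold. Among the 16 tested sensors of foreign RNA and DNA 14 rose, 0 fell and 2 did not pass (median 2.49). DDX58, which encodes the RNA sensor RIG-I, went from 1334, 1209 and 1181 to 43353, 44248 and 45019 (35.6-fold, log2 SE 0.05). IFIH1, which encodes the related sensor MDA5, rose 63.4-fold, from 408, 330.4 and 377 to 22635, 22887 and 25225. ZBP1, a sensor of Z-form nucleic acid that can start necroptosis, rose 84.7-fold, from a mean of 4.94 ± 2.95 to 465 ± 23.3 (SD, n = 3). The adapter MAVS through which RIG-I signals did not pass (log2 fold change -0.01, adjusted p = 0.961), nor did the cofactor ZCCHC3.

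The antiviral effectors rose in nearly every case. All 19 genes that degrade RNA or block translation rose (median log2 fold change 5.84, which is 57.2-fold). OAS2, an oligoadenylate synthetase, stood at 13.4, 23.2 and 34 normalized reads with FC-A and at 31628, 31845 and 32730.0 in the Combination. Its rise was 1394-fold (log2 fold change 10.45, SE 0.26, adjusted p = 1.65e-13). IFIT1, which binds RNA lacking the host cap methylation, went from 163, 274 and 246 to 108903, 109820.4 and 118704 (503-fold, adjusted p = 5.24e-16). IFIT2 rose 400.0-fold, IFIT3 205-fold, OASL 228-fold and SAMD9L 177-fold, each with no overlap between the groups. Reads shared between the similar IFIT genes could have been split in a way the sources do not state.

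Of the 8 GTPases of antiviral defence 7 rose and ATL3 did not pass (log2 fold change 0.01, adjusted p = 0.94), though it was called lower with quantile normalization. MX1, which traps viral nucleocapsids, went from 474, 631 and 689 to 140775, 140228 and 141668 normalized reads, a 238-fold rise. MX2 rose 109.7-fold, and the guanylate-binding proteins GBP4 and GBP1 rose 26.7- and 17.8-fold. All 13 membrane and secreted antiviral proteins rose (median 4.88). RSAD2, which makes a chain-terminating nucleotide, went from 33, 46.4 and 48.7 to 21357, 22730.3 and 22999 (519-fold, SE 0.11 on the log2 scale). IFI44L rose 127-fold, IFI6 80.9-fold and CMPK2 80.1-fold. The lowest increases of that list were those of LY6E and LGALS3BP, each 2.8-fold.

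ISG15, a ubiquitin-like modifier, went from 963, 1163 and 1077 to 95666, 91197 and 96440.0 normalized reads (88.6-fold, adjusted p = 4.39e-17). The enzymes that attach it rose with it, as all 6 genes of the list did (median 4.21). Its activating enzyme UBA7 rose 17.5-fold, its conjugating enzyme UBE2L6 12.8-fold and its ligase HERC5 104-fold. All 15 PARP, TRIM and nuclear body genes rose (median 3.32), led by TRIM22, a restriction factor, at 161-fold and PARP14, a mono-ADP-ribosyltransferase, at 31.1-fold. The 9 deaminases and nucleotide enzymes also all rose (median 2.65). SAMHD1, which depletes nucleotides, rose 16.8-fold, from 1138 ± 49 to 19179 ± 731 (SD, n = 3). The cytidine deaminase APOBEC3G rose from 3.41 ± 1.46 to 525 ± 25.4 normalized reads.

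A few genes were at or near 0 with FC-A and well measured with IFNa added. IFI16, a DNA sensor, had 0.891, 1.93 and 0 normalized reads in the FC-A libraries and 739, 715 and 727 in the Combination, and its read ratio was 773 (95% exact counting interval 264 to 3749.9). CXCL11, a T cell chemokine, had 1.78, 0.966 and 0 against 1624, 1547 and 1721, a ratio of 1780.3 (609 to 8636). TNFSF13B, which encodes the B cell survival factor BAFF, rose from 0.891, 0 and 0 to 266, 291 and 343, a ratio of 1010.1 (181 to 39947). These intervals cover counting error only. The antisense transcript USP30-AS1 was at 0 in all 3 FC-A libraries and at 40.1, 42.6 and 59.8 in the Combination, at least 51.3-fold higher against a floor of 3 reads over the FC-A group. No gene met the mirror condition of at most 3 reads over the Combination libraries with a called decrease.

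MHC class I genes rose without exception, 8 of 8 heavy chains, light chain and regulator (median 3.09) and 13 of 13 genes of peptide supply (median 1.59). NLRC5, the transactivator of class I promoters, went from 275, 292 and 257 to 4073, 4382 and 4109 normalized reads (15.2-fold). HLA-B rose 12.1-fold, from 2439, 2566 and 2231 to 29354, 28135 and 29921, and the light chain B2M rose 4.77-fold, from 9324 ± 339 to 44522 ± 2752 (SD, n = 3). HLA-F rose 11.5-fold. HLA genes are near copies of each other, so reads could be shared between them. TAP1, which pumps peptides into the endoplasmic reticulum, went from 1109, 992 and 818 to 23474, 23552 and 23486 (24.3-fold, adjusted p = 3.53e-15), and TAP2 rose 6.19-fold. The immunoproteasome subunits PSMB9, PSMB10 and PSMB8 rose 22.1-, 5.05- and 4.9-fold. With quantile normalization 11 of the 13 passed, all but the chaperones PDIA3 and CALR.

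Secreted and surface ligands followed. All 13 tested T cell chemokines, cytokines and checkpoint ligands rose (median 4.12). CXCL10, which draws activated T cells, stood at 14.3, 10.6 and 7.36 normalized reads with FC-A and at 15775, 15664 and 16624 in the Combination, a 1405-fold rise (log2 fold change 10.46, SE 0.16, adjusted p = 5.63e-16). IDO1, which consumes tryptophan, went from 8.91, 27 and 14.7 to 4482, 4267 and 5453 (288-fold). CD274, which encodes the checkpoint ligand PD-L1, rose 16.2-fold, from 20.5, 32.8 and 24.8 to 387, 448 and 460.2. All 11 neutrophil chemokines and inflammatory cytokines also rose (median 2.59). IL8 went from 168, 93.7 and 98.4 to 2861, 2975 and 2145 (22.5-fold), CCL20 rose 21.5-fold, CXCL2 12.4-fold and IL6 8.25-fold. Among 17 NF-kB subunits and feedback genes 15 rose and 0 fell (median 0.99), with TNFAIP3, a deubiquitinase that ends NF-kB signalling, 5.37-fold higher and the adhesion ligand ICAM1 4.07-fold higher.

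Cell death genes moved in both directions, and the 2 largest changes among death ligands and receptors were opposite. TNFSF10, which encodes the death ligand TRAIL, went from 561, 558 and 689.8 to 23325, 24386 and 25958 normalized reads, a 40.8-fold rise (log2 fold change 5.35, SE 0.08, adjusted p = 6.43e-16). TNFRSF10A, a signalling receptor for TRAIL, went from 868, 707 and 621 to 2737, 2827 and 2431 (3.66-fold). FAS went from 469, 379.6 and 354 to 1442, 1509.9 and 1536 (3.75-fold). TNFRSF10D, a TRAIL receptor with a truncated death domain that does not signal death, fell 3.88-fold, from 411, 343 and 373 to 88.7, 92.4 and 108 (log2 fold change -1.95, SE 0.12, adjusted p = 7.71e-09). No library of one group reached the other group for any of these genes. Of the 8 tested ligands and receptors 6 rose, 1 fell and 1 did not pass (median 0.61). TNFRSF10B, another signalling receptor for TRAIL, was not among those called with a change of at least 2-fold.

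BMF, a BH3-only protein that neutralises BCL2 family survival proteins, was the most reduced death gene. It stood at 3864, 4299.6 and 4936 normalized reads with FC-A and at 728, 619 and 971 in the Combination, and thus fell 5.72-fold (log2 fold change -2.51, SE 0.13, adjusted p = 1.14e-09). PMAIP1, which encodes the BH3-only protein NOXA, rose 3.03-fold, from 208, 235 and 175 to 613, 674 and 581. BBC3, BAK1 and HRK rose 1.82-, 1.68- and 1.49-fold, and BAD fell 1.34-fold. In this list 6 of 11 rose, 2 fell and 3 did not pass (median 0.21). Over all tested genes 26.6% rose and 22.3% fell.

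XAF1, which binds the caspase inhibitor XIAP, rose from 1.78, 1.93 and 4.6 to 4553, 4707 and 5003 normalized reads (1329-fold, log2 SE 0.23). The inflammatory caspases CASP1 and CASP4 rose 10.1- and 4.36-fold, with CASP1 at 128, 167 and 158 against 1392, 1399 and 1830.1. The apoptosome genes went the other way, APAF1 1.64-fold lower and CASP9 1.51-fold lower (adjusted p = 7.71e-07 and 2.28e-04). Altogether 7 of the 14 caspases and activators rose, 4 fell and 3 did not pass (median 0.16). The shares over all tested genes were 26.6% higher and 22.3% lower. With quantile normalization 6 of the 14 rose and 5 fell. MLKL, the pore-forming protein of necroptosis, rose 5.01-fold, from 362, 297 and 223 to 1436, 1485 and 1428, and the gasdermins GSDMC and GSDMB rose 6.01- and 4.91-fold. NLRP1, an inflammasome sensor, fell 2.4-fold at a low level, from a mean of 14.1 to 5.16, and lost its call without replicate 3 of every group (limma adjusted p = 0.0655). Necroptosis and pyroptosis genes came to 6 of 10 higher and 2 lower (median 0.83).

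Genes listed as inhibitors of apoptosis mostly rose as well, 9 of 12, with 1 lower and 2 that did not pass (median 0.51). Of all tested genes 26.6% were higher and 22.3% lower. With quantile normalization 7 of the 12 rose and 1 fell (median 0.37). BIRC3, a ubiquitin ligase that protects against TNF-induced death, went from 67.7, 54.1 and 23.9 to 436, 452 and 401 normalized reads (9.45-fold). RIPK2, the kinase below the NOD receptors, is counted here without being a direct inhibitor of apoptosis. It went from 944, 776 and 619.9 to 3025, 3199.8 and 2693 (3.85-fold, limma adjusted p = 6.59e-09). CFLAR, which blocks caspase-8 at the death receptor, rose 2.48-fold, and MCL1, a survival protein of the BCL2 family, rose 2.19-fold, from 11348, 11012 and 11349 to 23851, 24667 and 25199. BIRC5, which encodes survivin and is made mainly in dividing cells, fell 1.46-fold.

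**Figure D3:**
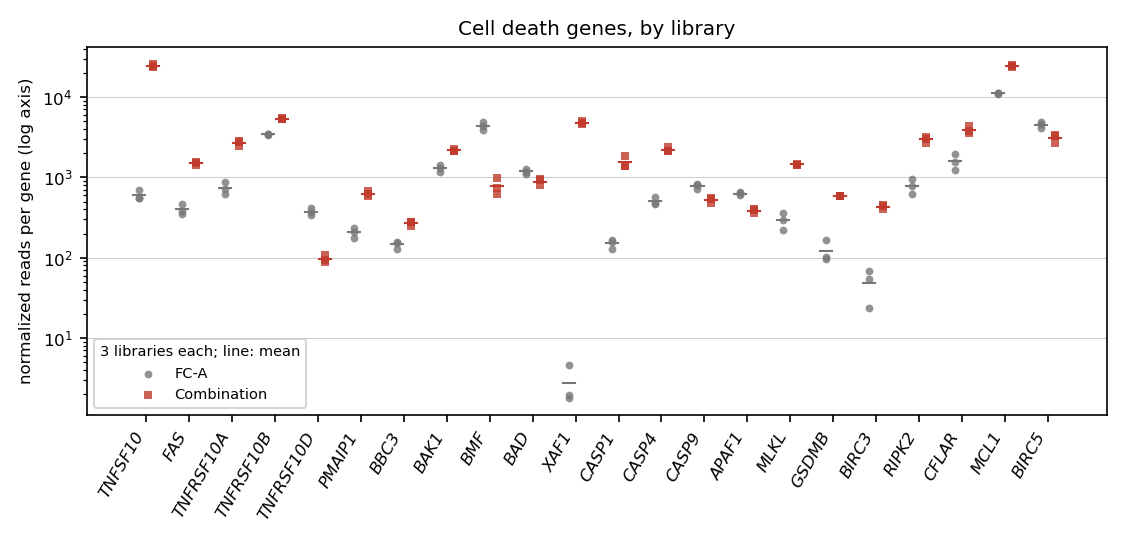
Normalized reads per gene (log axis) for each of the 3 FC-A libraries (grey) and 3 Combination libraries (red), with a line at each mean. Shown are ligands, receptors, BH3-only proteins, caspases, pore-forming proteins and genes listed as inhibitors of cell death. TNFSF10 and XAF1 lie far higher in the Combination, while TNFRSF10D (from a mean of 376 to 96.3) and BMF (from 4367 to 773) lie below all FC-A libraries.

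Early growth-response genes were higher in the Combination. Of 20 AP-1 and immediate early genes 18 rose and 0 fell (median 1.22). FOSL1, an AP-1 subunit, went from 163, 135 and 92.9 to 1721, 1766 and 1585 normalized reads (13.2-fold). BATF2, an AP-1 relative induced by interferon, rose 103-fold from a mean of 11.4 to 1184, and MAFF rose 8.19-fold. MYC rose 3.63-fold, from 687, 652 and 599 to 2376, 2556 and 2115 (adjusted p = 1.93e-11). MAPK feedback genes, which ERK signalling is known to induce, showed 15 of 16 higher and 0 lower (median 1.23). SPRY4, an inhibitor of receptor tyrosine kinase signalling, went from 147, 131 and 135 to 1398, 1556 and 1294 (10.2-fold), the ERK phosphatases DUSP6 and DUSP5 rose 6.05- and 5.15-fold, and the PEA3 factor ETV5 rose 4.6-fold. Among EGF receptor genes and ligands 8 of 11 rose and 0 fell (median 1.29). Of the ligands BTC went from 377, 475 and 532 to 1639, 1669 and 1703 (3.65-fold), while EREG and AREG rose 8.48- and 7.7-fold but stayed at means of 36.8 and 27 normalized reads.

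Wnt genes showed no common direction, with 11 of 27 higher, 8 lower and 8 that did not pass (median 0.20). Of all tested genes 26.6% were higher and 22.3% lower. With quantile normalization 8 Wnt genes were higher and 10 lower. LGR5, the R-spondin receptor that marks Wnt-driven stem cells, fell 5.31-fold, from 144, 183 and 176 to 36.9, 34.3 and 22.4 normalized reads (adjusted p = 4.79e-07). The receptor FZD2 fell 2.27-fold, whereas the receptor FZD5 rose 2.46-fold and the inhibitor DKK1 rose 3.01-fold. Of 13 BMP, TGF-beta, ID and HES genes 7 rose and 1 fell (median 0.46). HES4 led them at 4.26-fold. Cell adhesion and matrix genes were mostly higher, 19 of 26 with 3 lower (median 0.57). NT5E, the ectoenzyme CD73 that makes adenosine, went from 72.2, 53.1 and 68.1 to 655, 778 and 871 (11.8-fold). The urokinase receptor PLAUR rose 4.78-fold, from 1248, 1075 and 891 to 5512, 5289 and 4498, and the laminin chain LAMA3 rose 4.38-fold.

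Mitotic genes were lower. In the list of mitosis and G2/M genes 20 of 24 fell, 1 rose and 3 did not pass (median -0.55), and 23 fell and 0 rose with quantile normalization. BUB1B, a spindle checkpoint kinase, went from 4455, 4163 and 3943 to 2067, 2056 and 1823 normalized reads (2.11-fold lower, adjusted p = 4.24e-08). KIF20A, a motor of the central spindle, went from 4179.6, 4269 and 4066 to 2034, 2203 and 1917 (2.04-fold lower). CDC25C and CENPF fell 2.03- and 1.91-fold, while the phosphatase CDC25B rose 1.4-fold, a call lost with quantile normalization. Of the DNA replication genes 7 of 24 were lower, a share near the 22.3% of all tested genes, 1 was higher and 16 did not pass (median -0.14, against -0.01), and 14 lower and 0 higher with quantile normalization. E2F2, a factor that drives S-phase genes, fell 1.58-fold.

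The inhibitors that hold cells in G1 were split. CDKN1A, which encodes p21, went from 1108, 1187 and 1252 to 4567, 4549.8 and 4027 normalized reads (3.7-fold, adjusted p = 1.58e-11). CDKN2C, which encodes the CDK4 inhibitor p18, fell 3.58-fold, from 156, 154 and 161 to 51.7, 39.1 and 39.5, and CDKN1C fell 1.74-fold. Cyclin D1 (CCND1) rose 2.83-fold, from 12600.3, 8932 and 6717 to 26986, 26864 and 23662. Altogether 6 of the 14 genes rose and 5 fell (median 0.04), against 26.6% and 22.3% of all tested genes. The p53 target list was likewise divided, 7 of 17 higher and 7 lower (median -0.11), with the stress cytokine GDF15 5.13-fold higher and the antiproliferative gene BTG2 2.39-fold lower. Of 18 homologous recombination and Fanconi genes 7 rose and 3 fell (median 0.07), beside the same 26.6% and 22.3%. Among them BRIP1, a helicase partner of BRCA1, was 1.85-fold higher and BRCA1 1.34-fold lower.

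Stress and metabolic lists shifted by small amounts. Of 23 ATF4 targets 12 rose and 3 fell (median 0.29), against 26.6% and 22.3% of all tested genes. With quantile normalization 11 of the targets rose and 8 fell. NUPR1, a small chromatin-binding protein of the stress response, rose 9.99-fold, from 212, 279 and 289.7 to 2325, 2333 and 3187 normalized reads, CHAC1 rose 3.08-fold, and the serine synthesis genes PSAT1 and PHGDH fell 1.52- and 1.34-fold. In the GCN1 and eIF2 kinase list 3 of 8 rose and 1 fell (median 0.02), and 1 rose and 3 fell with quantile normalization. GCN1L1, which encodes the ribosome-bound activator GCN1, did not pass, at 11616, 12308 and 12874 against 11647, 12329 and 12818, but was called lower with quantile normalization (log2 fold change -0.27, limma adjusted p = 0.00221). Its kinase partner EIF2AK4, also called GCN2, fell 1.34-fold, and PPP1R15A, a phosphatase subunit that reverses eIF2 phosphorylation, rose 1.63-fold. Unfolded protein response genes came to 13 of 18 higher and 0 lower (median 0.24), and to 6 higher and 1 lower with quantile normalization, with none changed 2-fold.

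Cholesterol synthesis genes were more often lower than higher, with 13 of 26 lower and 5 higher (median -0.12). Of all tested genes 22.3% were lower and 26.6% higher. With quantile normalization 18 cholesterol synthesis genes were lower and 3 higher. The mevalonate kinase MVK went from 861, 864 and 798 to 489, 495 and 427 normalized reads (1.79-fold lower), while the sterol carrier STARD4 rose 2.86-fold. Glycolysis and hypoxia genes showed 13 of 21 higher and 1 lower (median 0.55), and 10 higher and 5 lower with quantile normalization. The secreted peptide ADM rose 3.75-fold and hexokinase HK2 2.75-fold. Of the 13 mitochondrially encoded subunits 1 rose, 1 fell and 11 did not pass (median 0.08), and 4 fell and 0 rose with quantile normalization.

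Calls for the 14-3-3 proteins, the targets of FC-A, changed with quantile normalization, but their counts did not change with TMM, edgeR or DESeq2. Here 4 of 7 rose and 0 fell (median 0.27), against 26.6% and 22.3% of all tested genes. With quantile normalization 2 of the 7 rose and 3 fell (median -0.07). YWHAG stood at 10981, 9386 and 8785 normalized reads with FC-A and at 14543, 14865 and 13941 in the Combination (1.49-fold, adjusted p = 1.72e-05). YWHAZ went from 36787, 33727 and 33986 to 41662, 41696 and 42579.7 (log2 fold change 0.27, adjusted p = 3.84e-04), and with quantile normalization its log2 fold change was -0.07. The groups did not overlap for either gene as deposited.

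Among the largest decreases of genes averaging 50 normalized reads or more, several were genes of no list. LMO1, a transcriptional cofactor of the LIM domain family, went from 531, 639 and 659 to 92.9, 81.7 and 109 normalized reads (6.41-fold lower, adjusted p = 5.18e-10). SLC40A1, the iron exporter ferroportin, went from 168, 185 and 277 to 57, 36.7 and 59.8 (4.03-fold lower), and GRIN2A, a glutamate receptor subunit, fell 4.57-fold. RBBP8NL fell 5.3-fold, from 650.4, 828 and 805 to 157, 166 and 110.0. The largest fold decrease named was that of the noncoding gene RP4-738P15.1, from 81.1, 116 and 106 to 12.7, 11.8 and 9.61 (8.19-fold lower). No group overlapped with the other for these 5 genes.

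**Figure D4:**
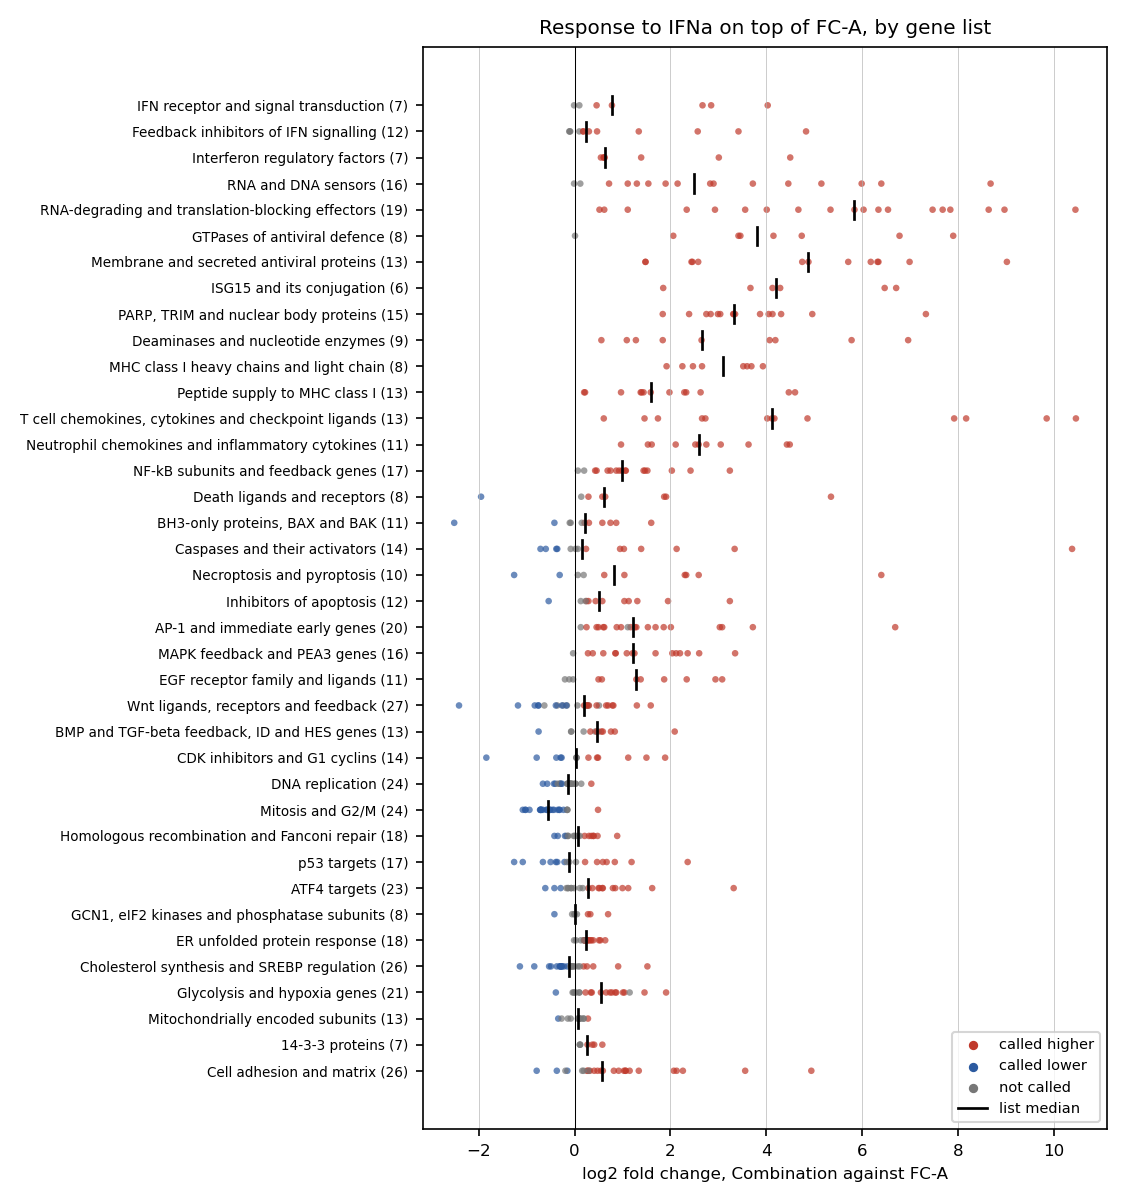
Log2 fold change of each tested gene in the Combination against FC-A (x axis), in rows by gene list with the number of genes tested in brackets. Red points were called higher, blue points lower and grey points not called, and the black bar is the list median. Antiviral, MHC class I and chemokine lists lie almost wholly to the right of 0, with a median of 5.84 for RNA-degrading and translation-blocking effectors, while the mitosis list has a median of -0.55.

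The response to IFNa was then set beside the response without FC-A (IFNa against DMSO, 7507 genes called, 46.9%), which shares no library with it. Over the 7818 genes called here the log2 fold changes of both responses had a Pearson correlation across genes of 0.975, and 7747 (99.1%) had the same sign. Over all 15990 genes these figures were 0.949 and 87.1%. Genes are not independent replicates, so these values are descriptive. By gene, STAT2 rose 7.19-fold with FC-A and 6.6-fold without it, TNFSF10 40.8- and 37.4-fold, and CDKN1A 3.7- and 3.76-fold. BMF fell 5.72-fold with FC-A and 6.6-fold without it, and this difference did not pass the interaction test (log2 0.21, SE 0.19, limma adjusted p = 1).

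The difference between the responses, tested as an interaction in limma, passed the threshold for 0 of 15990 genes (0%). At an unadjusted limma p under 0.05 there were 627 (3.92%). A threshold of 0.05 passes about that share of genes when none differs. The number moved both ways with the libraries used. Leaving out 1 library gave from 477 (2.98%, without IFNa replicate 1) to 1234 (7.72%, without IFNa replicate 3). It was 1091 (6.82%) without FC-A replicate 3 and 1748 (10.9%) when every group lost its replicate 3. edgeR on the recovered reads called 0, and DESeq2 called 3, among them KLHL29 and CPA4. The median SE of the interaction was 0.131 on the log2 scale, so this result does not show that the responses were equal. Among the genes with the smallest p, chosen after their values were seen, were FAM65B, KLHL29 and CPA4, each with a limma adjusted p of 0.593. FAM65B had a mean of 24.4 normalized reads with DMSO and 421 with IFNa, and 13.4, 13.5 and 8.28 with FC-A and 520.3, 532 and 535 in the Combination, a 16.6-fold response without FC-A and a 42.5-fold response with it. KLHL29 had a response of 1.05-fold without FC-A and 1.4-fold with it, as its mean was 1605 with DMSO and its FC-A libraries stood at 1044, 1123 and 1069. CPA4, a carboxypeptidase, likewise started lower with FC-A (1834, 1692 and 1671, against a DMSO mean of 3664), and its response was 2.22-fold with FC-A and 1.58-fold without.

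Over the 91 antiviral effector and MHC class I genes of the 8 lists above, 90 rose on top of FC-A, 84 of them at least 2-fold, and the median fold change was 11.8 with FC-A and 11.2 without it. The response was larger with FC-A for 76 of the 91, with a median difference of 0.12 on the log2 scale, against 52.2% of all genes tested and a median of 0.01. In the alternatives run, the number ranged from 69 to 77 and the median from 0.09 to 0.14. The 91 genes answer to the same agent in the same libraries and are not independent replicates. Their count and median are therefore descriptive and carry no test. None of the 91 passed the interaction test on its own, and 16 had an unadjusted limma p under 0.05. With 1 library left out this number was between 12 (without IFNa replicate 2) and 24 (without FC-A replicate 3). It was 25 when every group lost its replicate 3 and 13 with edgeR. RTP4, LAMP3, SPATS2L and ETS2, which followed in order of p, also had larger responses with FC-A, for example 64.1-fold against 31.1-fold for RTP4 and 96-fold against 72.5-fold for LAMP3 (limma adjusted p = 0.826 for each).

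**Figure D5:**
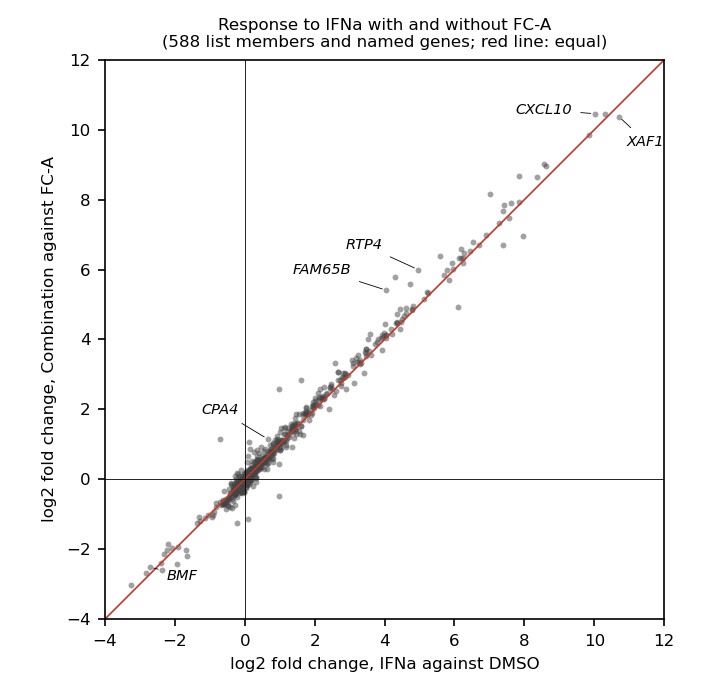
Log2 fold change of IFNa against DMSO (x axis) and of the Combination against FC-A (y axis) for the 588 list members and named genes, each a point, with the line of equal response in red. Points follow the line from BMF at the lower left to CXCL10 and XAF1 at the upper right, and FAM65B (5.41 against 4.05), RTP4 (6.00 against 4.96) and CPA4 lie above it.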

How the data were processed

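The signal values are normalized read counts, 1 per gene and library, which the authors deposited in 1 table of 28035 genes. Per the submitters' processing notes, bcl2fastq 2.20, STAR 2.7.3, FastQC, DESeq2 1.24.0 and the build hg19 were used; the sources used here do not give the counting program, its use of strand or the annotation. Antisense genes and near-identical copies (IFIT, HLA) are therefore uncertain. Libraries were made from 100 ng of total RNA with a strand-preserving mRNA kit, per the labels' protocols.

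Each library's values were divided by the value of 1 read, and 100% came out whole within 0.01, which gave the reads behind the depths and counting intervals. Genes with a mean of at least 10 over the 12 libraries were tested on log2(value + 1) with limma 3.58.1 in R 4.3.3, with 1 mean per group, a variance trend and two-sided moderated tests. P-values were adjusted by Benjamini-Hochberg over 15990 genes at a threshold of 0.05. SE is the moderated standard error, and SD is over 3 libraries. Groups came from the labels. The code was tested on simulated data. The authors' deposited fold changes and p-values were not used. Promoter windows (GRCh38.p14) were matched by gene symbol only, because the files use another build.

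The gene lists and tests were chosen with earlier results of these data known. Named genes were the 12 largest increases and 12 largest decreases among called genes that averaged 50 or more, and 10 or more in the lower group, with no overlap. Added were genes with at most 3 FC-A reads in all, the leading members of each list, and 16 chosen by function. Other list members that complete a count, such as B2M, CD274, UBE2L6, PSMB8 and the genes that did not pass, were named after their values were seen. Alternatives were pseudocounts of 0.5 and 8, no filter, TMM and quantile scaling, a fit of the 6 libraries alone, a block for the replicate number, leaving out each library or replicate 3, edgeR 4.0.16 and DESeq2 1.42.0. Some genes are counted in their lists but not reported here by name.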

Additional observations from a re-analysis of the deposited data

How the results depend on the processing

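The number of genes called for the Combination against FC-A was 7811 and 7859 with pseudocounts of 0.5 and 8, 7803 with no filter, 7886 with TMM, 8510 with quantile normalization and 6918 with the 6 libraries alone. edgeR called 7922 (7575 shared with limma) and DESeq2 7718 (7532 shared). Leaving out 1 library gave 6664 to 8122 genes called, 3776 to 4364 higher, 2888 to 3758 lower and 1520 to 1689 changed at least 2-fold. Genes called lower numbered 5407 with quantile normalization, against 3563. The interaction called 1 gene (NOV, limma adjusted p = 0.0407) without replicate 3 of every group, 3 with DESeq2 and 0 with any 1 library left out. Same-numbered FC-A and Combination libraries deviated together weakly and unevenly (correlations 0.188, 0.027 and 0.339). Between all pairs of groups the correlations were 0.018 to 0.188 for replicate 1 and 0.02 to 0.113 for replicate 2. For replicate 3 they were 0.188 to 0.395. The main fit did not take the numbers as pairs, so any effect shared by a replicate number stayed in its spread. With the replicate number as a block 8910 genes were called and the interaction called 1, with 1260 genes (7.88%) at an unadjusted p under 0.05, 30 of them among the 91 antiviral effector and MHC class I genes. Values of named genes kept direction and call in 4290 of 4356 cases, lost the call in 53, gained it in 1 and changed sign in 12. Of those that changed sign, with quantile normalization MT-ND1 had a log2 fold change of 0.00, YWHAZ -0.07, IFNAR1 -0.06 and GCN1L1 -0.27; GCN1L1 was -0.02 with TMM, -0.02 with edgeR, -0.01 with DESeq2, and -0.04, -0.00 and -0.03 without FC-A replicate 1, Combination replicate 2 and Combination replicate 3. TYK2 was 0.03 without Combination replicate 3 and 0.04 without replicate 3 of every group. The cause was not tested. With 3 libraries a group, differences near the median SE of 0.0924 were not resolved.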

Other observations

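Calls were also counted by class of gene. By the annotated biotype of each Ensembl gene, 29.2% of 13360 protein-coding genes were called higher in the Combination and 22.6% lower. Of 715 antisense genes 10.1% were higher and 27.7% lower, and of 543 long intergenic noncoding genes 13.8% were higher and 24.1% lower. Among the latter 8.66% rose and 8.66% fell at least 2-fold, against 6.46% and 2.86% of protein-coding genes. Among 663 pseudogenes 14.2% were higher and 11.3% lower. No test of these differences was run, and 393 genes had no biotype. Antisense genes cannot be separated from their partners unless strand was used in counting, which the sources used here do not state.

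By size class, the decreases reached less far than the increases. Of the 3563 lower genes 2138 changed less than 1.5-fold, 879 1.5- to 2-fold, 509 2- to 4-fold and 37 4- to 16-fold. The 4255 higher genes had 2462, 766, 644 and 273 in the same classes and 110 beyond them.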
